A study of Mus musculus with 6 samples.

Results

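The immediate early genes are a set of genes whose transcription starts within minutes of a stimulus, before any protein has to be made. They were followed here on 6 CodeLink arrays of 1 colour, hybridised with RNA of mouse hearts at embryonic day 11.5. The set was given as 10 gene names, and the probes were those that the platform table assigns to them. The table lists 1 probe each for 9 of the 10 names, of 18005 gene names in all, and lists none for Jund. Of the 9, Fos, Fosb, Jun, Junb, Egr1, Ier2, Dusp1, Klf6 and Gadd45b, 8 entered the test, because Fos was above background on only 2 of the 6 arrays.

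The arrays held total RNA of 3 mutant hearts, in which Dicer was inactivated by a Cre recombinase knocked into the Nkx2.5 locus, and of 3 control hearts. Dicer makes mature miRNAs from their precursors. Nkx2.5 is active in cardiac progenitors, so heart cells outside that lineage keep their Dicer gene. The labels do not give the genotype of the controls or say whether they too carry the Cre. Nor do the labels say whether an array held 1 heart or a pool, so every p-value here rests on a spread between samples that may be technical.

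Immediate early genes answer growth factors, calcium, mechanical load and stress through kinases of the MAPK cascades, which act on factors such as Srf with its Elk partners and Creb1 that already sit on the promoters. Their mRNAs are short-lived, so the signal fades soon after the stimulus ends. Fos and Fosb form heterodimers with Jun, Junb or Jund, which make up the transcription factor AP-1, and Egr1 and Klf6 are zinc finger transcription factors. Dusp1 is a phosphatase that switches MAP kinases off again, Gadd45b is a stress protein that acts on a kinase upstream of p38 and JNK, and Ier2 is a small nuclear protein.

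The promoters show what these genes share in sequence. RefSeq promoters (GRCm38.p6) were used for 8 of the 10 names. Those of Egr1 and Ier2 were not searched, so the counts below say nothing of them. The 150 bases before the start were searched on both strands for TGACG, the core of the cAMP response element bound by Creb1, for the full element TGACGTCA, which contains that core, for the AP-1 site TGANTCA and for the CArG box of Srf. The core stood in 4 of the 8, against 13.5% of 27025 promoters of the same length. The full element stood in 1 of the 8, against 1.44%, and the AP-1 site and the CArG box in 0 of the 8, against 4.27% and 0.884%. A match is a description of letters and no evidence of binding. Sites farther upstream than 150 bases, or spelled otherwise, were not searched, so 0 matches does not mean that a gene lacks a site. The 4 promoters with the core are printed with it in capitals. They are followed by that of Jun, whose window holds no exact match to the 4 motifs. It does hold tgacatca, which differs from the full element in 1 base. The window of Klf6, not printed, holds the same letters, and such near matches were not counted over all promoters. No link between these sequences and the levels on the arrays was tested.
Fos, chr12:85473740-85473889, strand +: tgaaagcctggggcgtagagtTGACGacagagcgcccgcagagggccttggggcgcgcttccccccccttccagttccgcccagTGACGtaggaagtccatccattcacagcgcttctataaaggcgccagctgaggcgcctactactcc
Fosb, chr7:19310046-19310195, strand -: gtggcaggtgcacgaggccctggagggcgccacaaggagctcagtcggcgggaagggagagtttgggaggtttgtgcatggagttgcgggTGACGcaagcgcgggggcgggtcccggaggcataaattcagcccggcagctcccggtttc
Junb, chr8:84978749-84978898, strand -: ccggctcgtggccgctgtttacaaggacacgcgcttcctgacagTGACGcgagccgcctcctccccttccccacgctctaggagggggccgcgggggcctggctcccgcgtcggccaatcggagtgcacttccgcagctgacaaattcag
Dusp1, chr17:26508473-26508622, strand -: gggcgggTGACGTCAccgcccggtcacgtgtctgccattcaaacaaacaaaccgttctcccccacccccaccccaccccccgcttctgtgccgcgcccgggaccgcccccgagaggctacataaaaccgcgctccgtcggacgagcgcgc
Jun, chr4:95052223-95052372, strand -: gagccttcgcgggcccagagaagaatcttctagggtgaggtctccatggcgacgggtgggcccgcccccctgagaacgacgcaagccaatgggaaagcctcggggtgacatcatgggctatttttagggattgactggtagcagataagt
Fos holds the core at -129 and again at -66, counted back from the start, Fosb at -60 and Junb at -106. In Dusp1 the 8 bases from -143 make up the full element.

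All levels below are log2 intensities after background correction and quantile normalization, and differences are mutant minus control on that scale. An offset in the correction pulls the differences of dim probes towards 0. Between 74.1% and 78.2% of the 36227 spots per array were above background, with mutant 3 the lowest, and the number of arrays limits the precision. The targeted gene was lower in the mutants. Dicer1 had 6.74, 6.73 and 6.68 in the mutants, against 7.82, 7.63 and 7.71 in the controls, a mutant to control ratio of 0.498 (95% interval 0.429 to 0.579, limma adjusted p = 0.036). Where its probe lies relative to the deleted part is not known here. The arrays also differed in ways the groups do not follow. The leading principal component held 54.1% of the variance. On it controls 1 and 2 scored 37.3 and 26.3 and mutant 3 scored 5.63, while mutant 1, control 3 and mutant 2 scored -18.3, -20.8 and -30.1. Mutant 3 stood alone on the second component at -34.8.

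None of the 8 tested members passed the comparison of mutant with control hearts (0 of 8 at a limma adjusted p under 0.05, where 0.0508% of 17727 probes passed). Their median difference was -0.04, beside 0.02 over all probes tested, and 5 of the 8 were below 0, as were 46.7% of all probes. At an unadjusted p under 0.05 there was 1 of 8 (12.5%), Dusp1, against 10% of all probes, or 3.26% counting lower ones alone. The groups did not overlap for that gene alone among the 8, against 15.1% of all probes, or 5.27% counting lower ones alone. In RNA of whole hearts fewer cells of a type and less RNA per cell cannot be told apart.

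**Figure D1:**
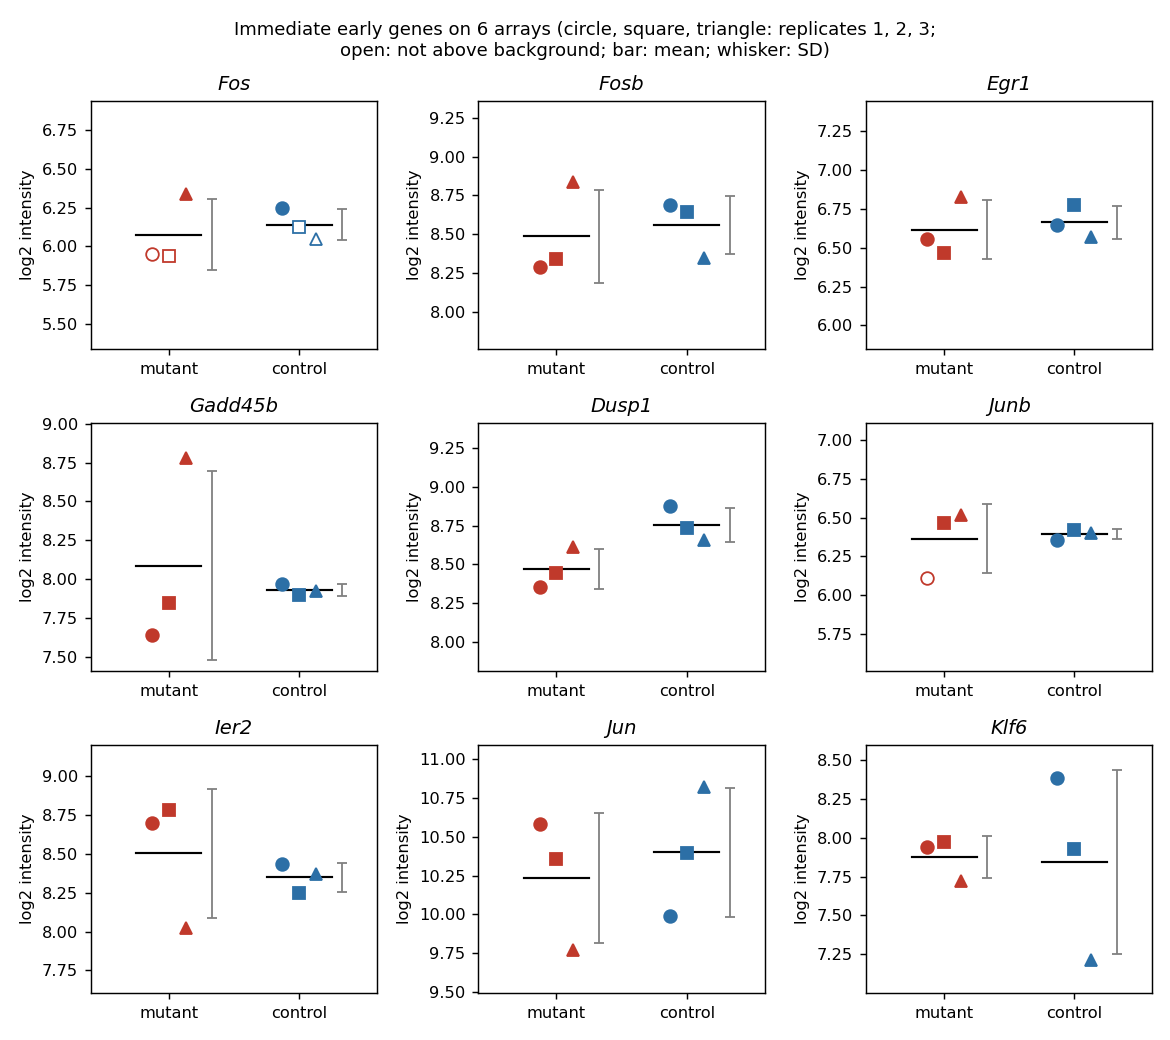
Log2 intensity of the 9 measured immediate early genes on each array, mutants in red at the left and controls in blue at the right of each panel; every panel spans the same height. Bars are group means and whiskers 1 SD (n = 3). Mutant 3 is the highest mutant for Fos, Fosb, Egr1, Gadd45b, Dusp1 and Junb and the lowest for Ier2, Jun and Klf6.

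Dusp1 showed the clearest separation of the groups. Its level was 8.35, 8.45 and 8.61 in mutants 1 to 3, against 8.87, 8.73 and 8.66 in controls 1 to 3. All mutants lay below all controls, with mutant 3 and control 3 nearest to each other. The difference was -0.28 ± 0.11 (SE), a mutant to control ratio of 0.821 (95% interval 0.684 to 0.985), and it did not pass over all probes (limma adjusted p = 0.459). As a phosphatase of p38, JNK and ERK, Dusp1 is the feedback arm of the set.

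The Fos family was measured by one faint and one brighter probe. Fos was above background in 1 of 3 mutants, mutant 3, at 6.34, and in 1 of 3 controls, control 1, at 6.25. On the other 4 arrays its spot was not well above background and its values there have no order. Fitted without the filter on dim probes, its difference was -0.06 ± 0.13 (SE, limma adjusted p = 0.907). Fosb, a close relative of Fos that also pairs with Jun proteins, had 8.29, 8.34 and 8.83 in the mutants, against 8.69, 8.64 and 8.35 in the controls. The arrays fell into a high trio of mutant 3 and controls 1 and 2 and a low trio of mutants 1 and 2 and control 3, so that both groups held high and low values. The difference was -0.07 ± 0.18 (SE, 95% interval -0.50 to 0.35, limma adjusted p = 0.904). On the authors' normalized scale, which carries no offset, Fosb had 3.34, 3.54 and 5.38 in the mutants, against 4.72, 4.61 and 3.59 in the controls, with the same trios.

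The Jun family was represented by Jun and Junb. Jun, the founding AP-1 partner, had 10.58, 10.36 and 9.77 in the mutants, against 9.99, 10.39 and 10.82 in the controls. Here mutant 3 was the lowest array and control 3 the highest, and the groups overlapped over most of their range. The difference was -0.16 ± 0.28 (SE, 95% interval -0.82 to 0.50, limma adjusted p = 0.86). Each group spanned about the same range, 0.81 in the mutants and 0.83 in the controls. Junb, a weaker activator than Jun, had 6.11, 6.47 and 6.51 in the mutants, against 6.36, 6.42 and 6.40 in the controls. Mutant 1 was not above background and was the one array that stood apart, while the other 5 lay close together. The difference was -0.03 ± 0.13 (SE, limma adjusted p = 0.95).

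Egr1 and Ier2 gave opposite pictures. Egr1 had 6.56, 6.46 and 6.83 in the mutants, against 6.65, 6.78 and 6.57 in the controls, a dim signal that was above background on all 6 arrays. The high trio was again mutant 3 with controls 1 and 2, and the difference was -0.05 ± 0.13 (SE, limma adjusted p = 0.915). Ier2 had 8.70, 8.79 and 8.03 in the mutants, against 8.43, 8.25 and 8.37 in the controls. Mutants 1 and 2 lay above the controls and mutant 3 below them, so the mutants spanned 0.76 where the controls spanned 0.18. The difference was 0.15 ± 0.21 (SE, limma adjusted p = 0.825).

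Klf6 and Gadd45b had the widest ranges of the set. Gadd45b had 7.64, 7.85 and 8.78 in the mutants, against 7.97, 7.90 and 7.92 in the controls. The controls were within 0.07 of each other, and mutant 3 was far above them where mutants 1 and 2 were below. The difference was 0.16 ± 0.28 (SE, 95% interval -0.52 to 0.84, limma adjusted p = 0.87), and it was -0.19 without mutant 3. Klf6 was the reverse case, with 7.94, 7.97 and 7.72 in the mutants, against 8.39, 7.93 and 7.21 in the controls. Its controls spanned 1.18, from control 1, the highest array, to control 3, the lowest, and its mutants 0.25. The difference was 0.03 ± 0.28 (SE, limma adjusted p = 0.972). Over the 6 arrays Klf6 ranged 2.26-fold, Gadd45b 2.20-fold and Jun 2.07-fold, and 91.9%, 91.3% and 89.5% of the genes tested had a smaller log2 range than these. Ier2 ranged 1.69-fold, Fosb 1.46-fold, Dusp1 1.44-fold, Junb 1.32-fold and Egr1 1.29-fold. For comparison the median range was 0.65 over the 8 members and 0.48 over 15012 genes (log2).

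**Figure D2:**
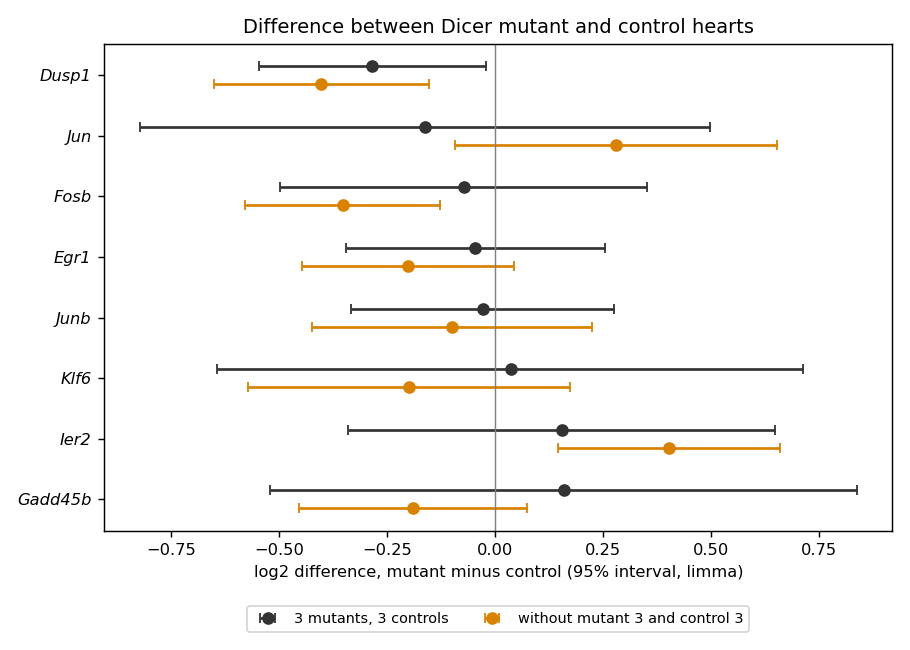
Log2 difference, mutant minus control, with the 95% interval from limma for the 8 tested members, over all 6 arrays (dark) and over the 4 arrays left without mutant 3 and control 3 (orange). With all arrays only the interval of Dusp1, -0.55 to -0.02, leaves out 0, and with 4 arrays those of Dusp1, Fosb and Ier2 do. Leaving out mutant 1 with control 1, or mutant 2 with control 2, left 0 members passing limma's test.

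The result depended on mutant 3 and control 3. Without these 2 arrays, which carry the same title number, 3 of the 8 members passed limma's test, where 22.1% of all 17727 probes did (11.8% higher and 10.4% lower). Dusp1 gave -0.40 ± 0.10 (SE, adjusted p = 0.0357), Fosb -0.35 ± 0.09 (adjusted p = 0.04) and Ier2 0.40 ± 0.11 (adjusted p = 0.0403), each from limma with 2 arrays a group. Jun turned to 0.28 and Klf6 and Gadd45b to -0.20 and -0.19, none of them passing (adjusted p = 0.256, 0.414 and 0.27). The other pairs of arrays with a shared title number were left out in the same way. Without mutant 1 and control 1, and without mutant 2 and control 2, 0 of 8 members and 0 of 17727 probes passed. Fosb then gave 0.0898 and 0.043, and Ier2 0.0958 and -0.0372. Limma's array weights, which gave mutant 3 a weight of 0.29 and control 3 one of 0.324 against 0.99 to 5.85 for the others, led to 2 members passing, where 23.9% of all probes passed (12.9% higher and 11% lower): Dusp1 at -0.32 (adjusted p = 0.0257) and Ier2 at 0.40 (adjusted p = 0.0485). Without mutant 3 alone 0 of 8 passed, where 0.00564% of probes did, and 2 of 8 had an unadjusted p under 0.05, against 15.5% of probes. Without control 3 alone 0 of 8 passed, where 1.81% of probes did, and 1 of 8 had an unadjusted p under 0.05, against 21% of probes. With the slide, as read from the start of the array titles, as a block, only mutants 1 and 2 and control 1 shared a slide. That fit had 1 residual degree of freedom and took the lone control to vary like the other arrays. In it 0 of 8 passed, where 7.56% of 17722 probes did, and 4 of 8 had an unadjusted p under 0.05, against 28.2% of probes. What sets mutant 3 and control 3 apart was not tested.

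The members were then compared with each other over the arrays. Fosb, Egr1, Gadd45b, Dusp1 and Junb were positively correlated in all 10 of their pairs, with Pearson's r from 0.253 to 0.889. All 10 pairs of one of these 5 with Jun or Ier2 were negative, from -0.919 to -0.356. Jun and Ier2 correlated at 0.485 with each other, and Klf6 followed neither side, from -0.527 to 0.285 in 7 pairs. Leaving out mutant 1 alone took Junb with Dusp1 to -0.748, against 0.415 over all 6, and Dusp1 with Gadd45b to -0.0867, against 0.253. The series' value table gave Junb with Dusp1 -0.708, and Spearman's rho for that pair was -0.0286 over all 6. This division was made after the values were seen, and it therefore gets no test. Fos was left out because 4 of its 6 values have no order.

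**Figure D3:**
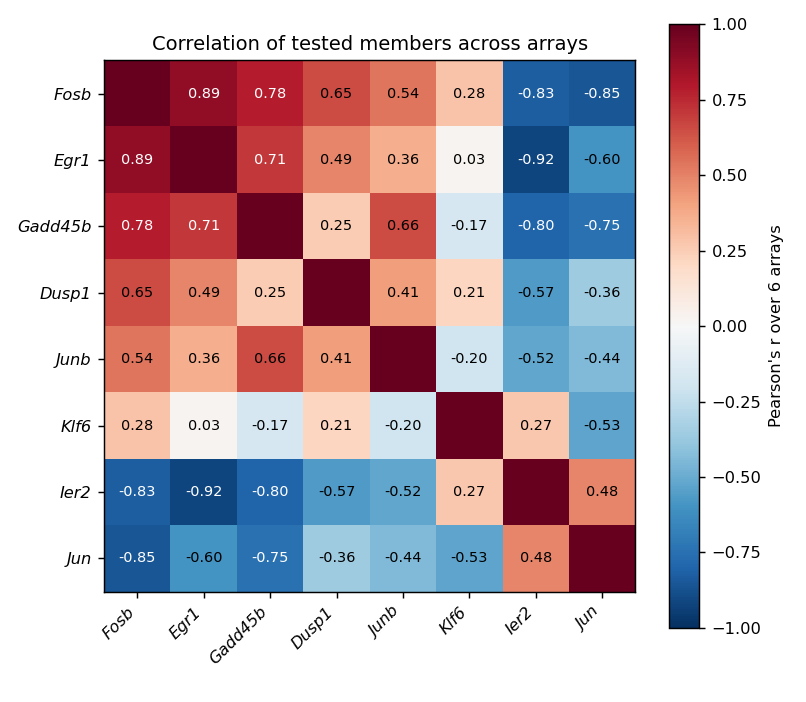
Pearson's r over the 6 arrays for each of the 28 pairs of tested immediate early genes, red for positive and blue for negative. Fosb, Egr1, Gadd45b, Dusp1 and Junb form a positive block at the upper left, and Ier2 and Jun run against it, down to -0.92 for Egr1 with Ier2.

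By the size of r over all 6 arrays the first pair was Egr1 with Ier2, at r = -0.919 (exact permutation p = 0.0153, adjusted over 28 pairs 0.163, n = 6). Spearman's rho was -0.943 (exact permutation p = 0.0167, adjusted 0.233), r was -0.754 without mutant 3 and control 2, the 2 arrays farthest from the median of Egr1, and -0.921 within groups. The arrays of Fosb lie in 2 separate trios, so its correlations largely restate that split, and no relation can be tested within 3 arrays; they are given as a description. Fosb with Egr1 gave r = 0.889 and rho = 0.886, with r of 0.824 without mutants 1 and 3, farthest for Fosb, and 0.886 within groups. Fosb with Jun, both partners of an AP-1 dimer, gave r = -0.854 and rho = -0.714, with r of -0.707 without mutants 1 and 3 and -0.935 within groups. Fosb with Gadd45b gave r = 0.784 and rho = 0.943, and within groups Jun with Dusp1 had the largest r in size, -0.985, against -0.356 over all 6 arrays. In none of the 28 pairs did r or rho pass after adjustment (two-sided, all 720 orderings of the arrays). An unadjusted permutation p under 0.05 for r was found in 5, the smallest of them for Fosb with Gadd45b. The share of all gene pairs under that p was not computed, so this count cannot be set against a background.

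The same counts were made over all gene pairs. An r over 0.8 was found in 1 of the 28 member pairs (3.57%) and in 5.98% of the 112342555 pairs of genes. An r below -0.8 was found in 3 of 28 (10.7%) and in 5.47% of all pairs. The correlations of Junb depended on few arrays: without mutants 1 and 3 its r with Gadd45b was -0.999, against 0.655 over all 6. Leaving out mutant 3 alone took Gadd45b with Egr1 to 0.349, against 0.709, and Jun with Ier2 to -0.00539, against 0.485.

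**Figure D4:**
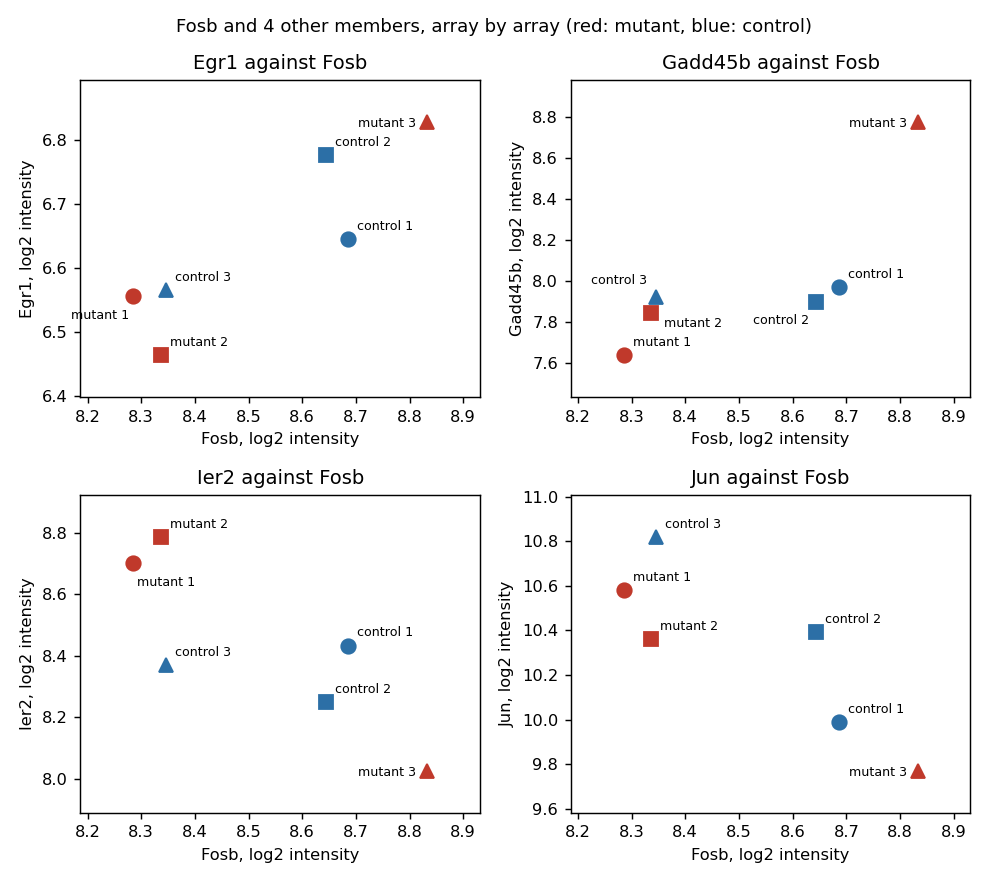
Log2 intensity of Egr1, Gadd45b, Ier2 and Jun against that of Fosb, 1 point per array (red mutants, blue controls). Mutant 3 lies at the right end of each panel and mutants 1 and 2 at the left with control 3; Egr1 and Gadd45b are highest in mutant 3, and Ier2 and Jun lowest.

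Of 48 other immediate early genes, 47 were on the array and 43 were tested, and 0 passed in either direction. Of the 43, 3 had an unadjusted p under 0.05, as did 10% of all probes. Their median difference was 0.03, with 23 above 0 and 20 below (46.7% of all probes were below 0). The groups did not overlap in 5 of them (11.6%, against 15.1% of all probes). These 5, named after their values were seen, were Egr2, Myc and Cebpd, lower in the mutants, and Ier5l and Irf1, higher in the mutants. Of the brightest 4, the transcription factor Klf2 had 12.14, 12.08 and 10.48 in the mutants, against 11.10, 11.41 and 11.97 in the controls (difference 0.07). Ier3, a short-lived stress protein, had 9.68, 9.86 and 11.87 in the mutants, against 10.90, 10.64 and 9.73 in the controls (0.05). Klf2 was lowest, and Ier3 highest, in mutant 3. The matrix protein gene Ccn2 gave 0.34 and Zfp36l1, which encodes a protein that binds AU-rich mRNAs for decay, 0.25.

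A further pair was picked after their values were seen. Atf3, a stress-induced partner of Jun, had the widest range of the list, 4.25, with 7.99, 7.74 and 9.33 in the mutants, against 11.22, 10.85 and 6.97 in the controls. Its controls held both the highest and the lowest array, and its difference was -1.33 ± 1.13 (SE, limma adjusted p = 0.704). Egr2, a zinc finger factor of the same family as Egr1, had 6.57, 6.84 and 7.07 in the mutants, against 8.06, 7.74 and 7.11 in the controls. All its mutants lay below all its controls, as with Dusp1, and its difference was -0.81 ± 0.26 (SE, limma adjusted p = 0.357).

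**Figure D5:**
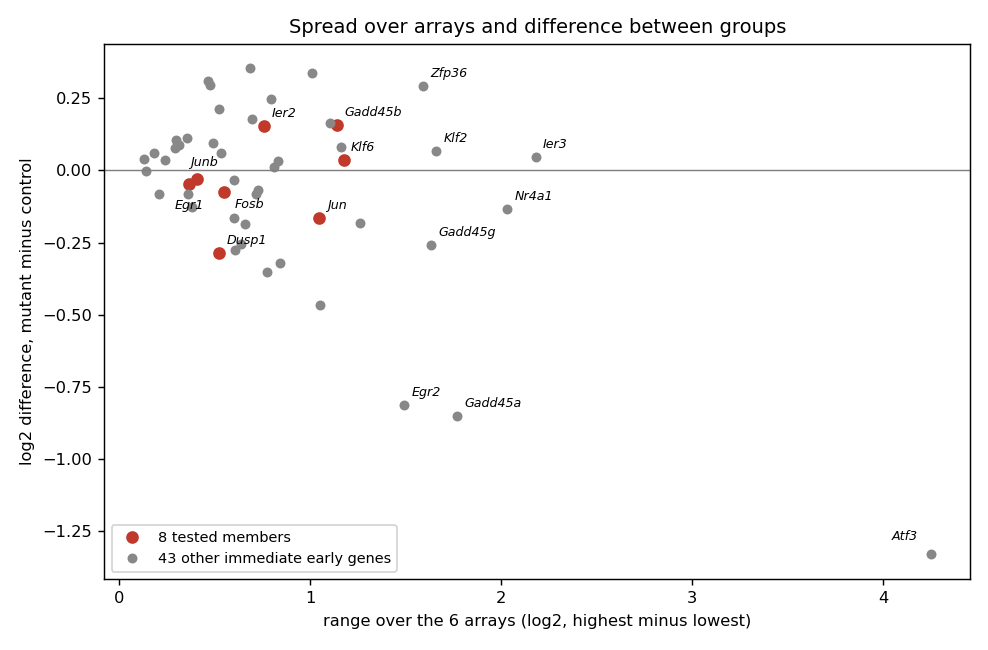
Range over the 6 arrays against the log2 difference, mutant minus control, for the 8 tested members (red) and the 43 other immediate early genes tested (grey), 1 point per gene. The members lie between -0.28 and 0.16, and Atf3, with the widest range at 4.25, lies at -1.33.

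The pattern of Fosb was shared by part of that list. Over the 6 arrays 7 of 43 correlated with Fosb above 0.8 (16.3%, against 8.81% of 14989 genes): Nr4a1, Fosl1, Fosl2, Ier3, Zfp36, Gadd45g and Ppp1r15a. Another 5 were below -0.8 (11.6%, against 12%): Klf2, Dusp2, Sgk1, Trib1 and Mcl1. With Jun the counts turned round, 4 of 43 above 0.8 (9.3%, against 8.89%) and 10 below -0.8 (23.3%, against 5.17%). With Ier2 they were 6 above (14%, against 5.99%) and 3 below (6.98%, against 4.74%). With Egr1 11.6% were above (against 4.88%) and 14% below (against 6.97%), and with Gadd45b 16.3% (against 6.27%) and 14% (against 5.26%). The other members had shares near or under those of all genes. With Dusp1 4.65% were above (against 7.31%) and 2.33% below (against 8.7%), with Junb 2.33% (against 2.65%) and 0% (against 1.71%), and with Klf6 4.65% (against 3.7%) and 2.33% (against 4.99%). These are descriptions of 6 arrays that share their main axes of variation, and carry no test.

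Of 23 upstream kinases and factors, 16 were on the array and 15 were tested, and 0 passed. Of the 15, 2 had an unadjusted p under 0.05, where 10% of all probes did. Their median difference was 0.07, with 10 above 0 and 5 below (46.7% of all probes were below 0). The groups did not overlap in 4 of 15 (26.7%, against 15.1% of all probes). These 4, named after their values were seen, were Elk1, Creb1, Map2k1 and Map2k4, all higher in the mutants, and Creb1, which binds the cAMP response element, gave 0.425 ± 0.12 (SE, limma adjusted p = 0.298). Map2k1, a kinase of ERK, gave 0.33 ± 0.11 (SE, limma adjusted p = 0.37) and Srf, which binds the CArG box, 0.05 ± 0.30 (adjusted p = 0.962).

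The genes most like the members were sought among 1506 genes above background on all arrays with a range of at least 1, by r with the mean of the 8 centred members. That mean was narrow, from -0.08 in mutant 1 to 0.07 in control 1, as members that ran opposite ways cancel in a mean. The highest r, over 6 arrays, were those of Ighv1-62 (0.943), the inducible heat shock gene Hspa1b (0.937), the stress transcription factor Ddit3 (0.929), Pga5 (0.921), Jmjd6 (0.919), Lcn12 (0.91), and Hilpda and Lims2 (0.909 each). The lowest were Iqgap2 (-0.965), Lgals7 (-0.958), Nsd1 (-0.955) and Plekhm1 (-0.951). Hspa1b had 8.45, 8.96 and 10.95 in the mutants, against 10.74, 10.32 and 8.88 in the controls, the same high trio as Fosb over a 2.51 range. Its probe may not tell it from its near-identical neighbour Hspa1a.

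Other cells and stress genes varied over the same arrays. Cardiomyocyte markers were above background on all 6 arrays for 8 of the 9 tested, and their summed normalized intensity was 2040 to 2240 in the mutants and 2010 to 2330 in the controls. Their median level, centred per gene, was lowest in control 1 at -0.32 and highest in control 3 at 0.44. The summed intensity is weighted to the brightest markers. Of the 9 tested, 5 had a difference above 0 and 4 below, and the groups did not overlap in 1 (11.1%, against 15.1% of all probes). That marker was Myl3, named after its values were seen, lower in the mutants at -0.784 ± 0.103 (SE, limma adjusted p = 0.0836). The summed level of 11 erythroid markers was 1540 to 1850 in the mutants and 1570 to 1990 in the controls. Of the 11, 9 had a difference below 0 (46.7% of all probes did), with a median of -0.28. The groups overlapped in all 11, where 15.1% of all probes had no overlap. Their centred medians were 0.03, -0.16 and -0.04 in mutants 1 to 3, against 0.37, 0.22 and -0.17 in controls 1 to 3. The summed level of 9 endothelial and endocardial markers was 85.4 to 104 in the mutants and 99.6 to 107 in the controls, with 8 of 9 differences below 0 (46.7% of all probes) and no overlap between groups in 4 of 9, all lower in the mutants (5.27% of all probes). That of 7 epicardial markers was 58.8 to 80.6 in the mutants and 61.8 to 139 in the controls. That of 4 leukocyte and platelet markers was 15.2 to 23.6 in the mutants and 13 to 17.5 in the controls, and Ptprc and Itgam were not above background on at least 3 arrays. Controls 1 and 2, which had high Fosb, had the highest erythroid medians. Among the mutants the highest erythroid median was that of mutant 1, with the lowest Fosb. The erythroid sums were 1540, 1540 and 1850 in mutants 1 to 3, against 1990, 1690 and 1570 in controls 1 to 3. The epicardial sums were 75.4, 58.8 and 80.6, against 139, 119 and 61.8. Both sums were highest in controls 1 and 2 and mutant 3, the high trio of Fosb. The centred epicardial median was highest in mutant 2, at 0.15. The part of these cells in the levels of the immediate early genes was not tested.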

How the data were processed

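Each file per array gives, per the file headers, the mean intensity of every spot, its local background median, a subtracted and a normalized intensity and a quality flag. On the values, the authors' normalized intensity is the subtracted intensity divided by 1 constant per array (largest departure 0.005%), and the series' value table repeats it on spots flagged G. An L flag, which marks a signal strength under 1 (5 of 50596 such spots excepted), was read as not above background. The sources used here do not give the scanning software. Of 21880 listed spots, 21676 have 1 gene.

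The analysis used limma 3.58.1 (R 4.3.3). Spot means were background-corrected by normexp, with an offset of 50. Log2 values were quantile-normalized over listed spots. Probes above background on at least 3 of 6 arrays entered lmFit and eBayes (two-sided, no block), with Benjamini-Hochberg adjustment over 17727 probes. The brightest probe stood for a gene. The fit and the exact permutation test were tested on simulated data. Members, lists and the naming rule (all members, the brightest 4 or 2 of each list where none passed, 8 genes most like and 4 least like the mean of the members) were chosen with earlier results of these data known. The alternatives covered background correction, starting column, scaling, filter, probe averaging, blocks, array weights and arrays left out.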

Additional observations from a re-analysis of the deposited data

How the results depend on the processing

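Each tested member was fitted under 21 alternatives, Junb under 20 because it left the filter that asks for all 6 arrays. The 8 members kept a difference that did not pass, except in the calls given in the report. Scaling, offset and filter changed no direction. The count of members passing was 0 in 19 of 21, 2 with array weights and 0 to 3 with arrays left out. The count of all probes passing, 9, was 5 with the subtracted intensity, 4 with the authors' normalized intensity, 5 with the series' value table, 5 with the mean of a gene's probes, 1339 with the slide block, 4230 with array weights and 0 to 3921 with arrays left out.

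Values near 0 changed sign easily. The difference of Junb was 0.26 in the value table. With the slide block, whose shared slide holds 1 control, Jun gave 0.48, Klf6 -0.43 and Gadd45b -0.23. With array weights they gave 0.0222, -0.02 and -0.0458. With arrays left out, Fosb ranged from -0.354 to 0.0898, Jun from -0.54 to 0.28, Junb from -0.11 to 0.10, Egr1 from -0.202 to 0.0866, Ier2 from -0.0372 to 0.402, Klf6 from -0.28 to 0.31 and Gadd45b from -0.19 to 0.40. Dusp1 stayed below 0, from -0.48 to -0.17 over all 21, with adjusted p from 0.0257 to 1. The cause of these changes was not tested.

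Member pairs with r over 0.8, 1 of 28, numbered 2 with the authors' normalized intensity and with the value table, 3 on deviations from the group mean, and 1 to 5 with arrays left out. Pairs with r below -0.8, 3 of 28, numbered 2 with cyclic loess, 4 with both normalized tables, 5 on deviations from the group mean and 2 to 6 with arrays left out. With arrays left out each r rests on 5 or 4 arrays, where a large r of either sign comes more easily. The same holds for deviations from the group mean, which are tied within each group. The shares over all gene pairs were not computed in these settings, so the higher counts are no result about the members. The title number is shared by 1 mutant and 1 control array, and the labels do not say what it marks. For arrays of the same number, deviations from the group mean gave r of 0.0144, -0.48 and -0.381 over probes. Deviations within a group of 3 are tied to each other, so these values cannot tell whether such arrays share a source. With the title number as a replicate block 0 members and 0 probes passed limma's test, with 1322 probes at an unadjusted p under 0.05. Dim signal limits Fos, Junb and Egr1 most.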

Other observations

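No gene of the stress lists beside the immediate early genes passed the comparison of the groups. Of 24 hypoxia and glycolysis genes, 20 were tested and 0 passed limma's test, with 1 at an unadjusted p under 0.05 (10% of all probes). Their median difference was 0.13, with 14 above 0 and 6 below (46.7% of all probes were below 0). Their centred median was 0.52 in mutant 3, -0.19 in mutant 1 and -0.07 in mutant 2, against 0.11, -0.08 and -0.12 in controls 1 to 3. The glycolytic enzymes Gapdh and Pgk1 gave 0.01 and 0.07. Of 12 heat shock genes, 9 were tested and 0 passed, with 0 at an unadjusted p under 0.05 and a median of 0.13, 6 above 0 and 3 below. The groups did not overlap in 1 of these 9 (11.1%), Hsp90aa1, and in 1 of the 20 hypoxia and glycolysis genes (5%), Pfkp, against 15.1% of all probes. Both were higher in the mutants and were looked up after their values were seen. The chaperone Hspa8 gave 0.03 and Hsp90aa1 0.27, while Hspa1a and Hspa1b, named after their values were seen, ranged by 2.95 and 2.51 over the arrays. Mutant 3, the array with the highest Gadd45b, Fosb and Egr1, was also highest in the centred medians of both lists. Those of heat shock were -0.04, 0.06 and 0.18 in mutants 1 to 3, against -0.13, -0.13 and 0.06 in controls 1 to 3. Controls 1 and 2, which also had high Fosb, were thus the lowest for heat shock. A link between these lists and the immediate early genes was not tested.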
